A study of Mus musculus with 16 samples.

Results

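Mouse chromosome 16 (MMU16) is trisomic in Ts65Dn mice only near its distal end, and the genes on the rest of it are present in 2 copies both in Ts65Dn and in TcMAC21 mice. The proximal MMU16 genes described here, 6 consecutive blocks of 59, were taken from 13807 genes in the deposited table, of which 433 lie on MMU16. Members were selected on the values of the Ts65Dn cross. Averaged over its 8 animals, 426 MMU16 genes reached 10 normalized counts; these were sorted by identifier number, and the last 72, whose Ts65Dn to euploid ratios were raised, were left out and all the others kept. The end of the stretch was thus placed with the Ts65Dn and euploid values themselves, so the Ts65Dn comparison below is a description with no test, and tests were kept for the TcMAC21 animals and for the difference between the crosses. Members are called by their place in this order, counted from 1 at the proximal end, since the deposited identifiers are not paired with gene symbols. The use of the number as chromosomal order is an assumption.

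RNA-seq was performed on whole P6 cerebella in 4 groups of 4 pups. Ts65Dn pups and their euploid littermates came from an advanced intercross on a C57BL/6J and C3H/HeJ background, and Ts65Dn mice carry a small extra chromosome that joins distal MMU16 to the centromeric part of MMU17. TcMAC21 pups and their euploid littermates had a C57BL/6J and DBA/2J background, and TcMAC21 mice carry the long arm of human chromosome 21 on a mouse artificial chromosome with a GFP gene, so that all mouse chromosomes stay disomic. The euploid littermates carry neither extra chromosome, and the labels name no treatment. The labels do not give the pups' sex. Pups were taken as pairs of trisomic and euploid littermates, but some pairs shared a litter, so the 4 animals of a group are not 4 separate litters. Which animals formed a pair is not labelled. In the TcMAC21 cross, littermate pairs below are animals of the same replicate number, an assumption drawn from their values. Without symbols, the cerebellar origin of the RNA could not be checked against marker genes.

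Most of proximal MMU16 is made of blocks orthologous to parts of human chromosomes other than 21, among them the interval deleted in DiGeorge syndrome. The extra segment of Ts65Dn mice begins close to the gene Mrpl39, whereas orthology to human chromosome 21 begins proximal to it, so that the last genes before Mrpl39, such as Ncam2, have human counterparts on chromosome 21. TcMAC21 mice can carry human copies of these genes beside the 2 mouse copies, and the values given here are those of the mouse genes. Genes at 2 copies in a trisomic animal are used to ask whether an extra chromosome changes expression elsewhere, since a gene with an added copy is expected near 1.5 times its euploid level and a disomic gene near its euploid level. In the GRCm39 annotation, the same build as the authors' mm39, Mrpl39 lies on chromosome 16 from 84502276 to 84533793, with 86.2% of the chromosome before it. The identifier numbers of the members span 86.9% of the numbers given to MMU16. In that annotation 528 protein-coding genes start before Mrpl39. In 6 equal runs of 88, the first holds Crebbp, a histone acetyltransferase, and Grin2a, an NMDA receptor subunit. The second holds Dgcr8, a microRNA processing factor, and the transcription factor gene Tbx1. The last run holds the axon guidance receptor genes Robo1 and Robo2, the ephrin receptor genes Epha3 and Epha6 and the adhesion molecule gene Ncam2. Which members these genes are was not worked out.

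The deposited values are normalized counts, that is reads per gene divided by a size factor of the library. The reads behind them could be recovered and summed to 6317856 to 25719969 per library, with a median of 16135420. Ts65Dn euploid replicate 1 stood apart from its group in many of the values below. Most medians, ratios, correlations and counts of the Ts65Dn comparison are given with and without it. In whole tissue, fewer cells of a type and less RNA per cell cannot be told apart. The library kit does not mark strand, so the reads of overlapping genes on opposite strands cannot be told apart either.

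Members ranged from weakly to highly expressed genes. The mean normalized count over the 16 animals ran from 9.0 to 8364, with a median of 420.4, against 449.4 for all mouse genes of the table. A mean under 100 was seen for 68 members, a mean from 100 to 1000 for 206, and a mean of 1000 or more for 80. Together the members took 1.71% to 1.98% of the normalized counts of a library. The most abundant member, at place 147, had 8422 ± 499 normalized counts (SD, n = 4) in TcMAC21 pups and 7957 ± 185 in their euploid littermates, and 8815 ± 717 in Ts65Dn pups and 8264 ± 1530 in theirs. The next most abundant, at places 137 and 263, had ratios of TcMAC21 to euploid means of 0.967 and 0.971. All 3 of these abundant members were near their euploid level in TcMAC21 pups, with limma log2 differences of 0.08 (SE 0.10), -0.045 (SE 0.144) and -0.026 (SE 0.154) and Benjamini-Hochberg adjusted p of 0.826, 0.937 and 0.968.

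In the TcMAC21 cross, 350 members reached a mean of 10 and were tested, and 4 did not. The ratio of the TcMAC21 mean to the euploid mean averaged 0.996 ± 0.195 (SD over 350 genes), from 0.344 to 2.19, with a median of 0.969. A ratio from 0.77 to 1.3 was found for 174 members below 1 and 127 above it. On the log2(normalized count + 1) scale, where changes of weakly expressed genes come out too small, the median difference was -0.045 for the members and 0.00 for the 13415 mouse genes tested, and 55.7% of the members lay below 0 against 49.9% of all mouse genes. The median of the members moved with single animals, to -0.014 without euploid replicate 2 and to -0.071 without euploid replicate 4. In single animals, the median of the members against the euploid mean was -0.011, -0.024, -0.058 and -0.10 in TcMAC21 pups, and 0.006, 0.056, -0.012 and -0.054 in euploid littermates. The 2 groups overlapped, while within the 4 littermate pairs the median of the members was -0.018, -0.082, -0.033 and -0.046, below 0 in each pair, and that of all mouse genes 0.008, -0.016, 0.007 and -0.001.

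Since an added copy would be expected to give 1.5 times the euploid level, the 95% interval of each member was set against this fold. The upper bound lay below 1.5-fold for 270 of 350 members (77.1%) in the limma fit and for 298 (85.1%) with the littermate pairs as a block. Over all mouse genes the shares were 72.6% and 83.9%. The interval of the other 80 members (52 with the block) was wide enough to hold 1.5-fold. No member had a lower bound above it, and 0.0149% of all mouse genes did in either fit. The median standard error of a member's log2 difference was 0.186, or 0.118 with the block, and this sets what the 8 animals could resolve; over all mouse genes it was 0.185 and 0.115.

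Few members differed between TcMAC21 pups and their littermates by more than the spread between animals. In the limma fit 1 of 350 passed a Benjamini-Hochberg adjusted p of 0.05, and it was lower in TcMAC21 pups. Of all mouse genes 0.0149% passed, all of them lower. In the TcMAC21 cross animals of the same replicate number were taken as pairs, which the labels do not name. With these pairs as a block 4 members passed, all lower, against 0.991% of all mouse genes in either direction and 0.775% lower. DESeq2 on the recovered reads called 2 members, both lower (0.142% of all mouse genes, 0.0895% lower). DESeq2 with the block called 15 members, 3 higher and 12 lower, beside 5.31% of all mouse genes (2.11% higher and 3.2% lower). It gave no adjusted p for 32 members, among them the one called by limma, and these were counted as not called. The groups did not overlap for 18 members (5.14%), 6 higher and 12 lower, where 4.27% of all mouse genes did so (2.02% higher and 2.25% lower). The members' shares in these 4 fits, in the order given, were 0.286%, 1.14%, 0.571% and 4.29%, and the first and the third rest on 1 and 2 members. Without 1 animal the groups of 28, 42 and 31 members did not overlap (TcMAC21 replicates 1, 2 and 4 left out) and of 29, 29 and 47 (euploid replicates 1, 3 and 4), beside 7.27%, 10.3%, 8.33%, 8.78%, 7.06% and 10.8% of all mouse genes. At an unadjusted p under 0.05 the limma fits held 22 members (6.29%, and 6.57% of all mouse genes) without the block and 82 (23.4%, and 23.4% of all mouse genes) with it.

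The member called by limma, chr16.195889 at place 119, is a gene of low expression. Its normalized counts were 12.72, 11.69, 15.03 and 9.87 in the 4 TcMAC21 pups and 32.7, 25.93, 34.51 and 50.08 in euploid littermates 1 to 4. Every TcMAC21 pup lay below every littermate, by a log2 difference of -1.44 (SE 0.261, limma adjusted p = 0.0249; 0.0489 with the block; DESeq2 adjusted p = 0.00188). These values rest on 5 to 18 reads in a TcMAC21 library and 19 to 49 in a euploid library. The call was lost without any 1 of TcMAC21 replicates 1, 2 and 4 or euploid replicates 1, 3 and 4, with limma adjusted p from 0.0257 to 0.106 over the 8 animals left out. With the block it was lost without pair 1, 2 or 3 (limma adjusted p = 0.159, 0.217 and 0.206) and kept without pair 4 (0.0159). The Ts65Dn cross showed no such separation, with 10.06, 18.14, 24.6 and 21.35 in Ts65Dn pups and 39.53, 12.97, 22.1 and 20.33 in their littermates. The identifier at place 118 has the number just before this one and belongs to an abundant gene, with 5549 ± 549 normalized counts in TcMAC21 pups and 5061 ± 855 in littermates (SD, n = 4). Whether the reads of these neighbours can be separated was not tested.

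The other 3 members called with the block were expressed at moderate to high level. The member chr16.198740, at place 215, had normalized counts of 904.61, 1080.62, 755.95 and 821.41 in TcMAC21 pups against 1278.06, 1599.26, 1193.36 and 1331.6 in littermates. Again the groups did not overlap, and the log2 difference was -0.60 (SE 0.0746 with the block, limma adjusted p = 0.00681; SE 0.146 and adjusted p = 0.203 without it; DESeq2 adjusted p = 0.0324). The member at place 126 had 219.79, 375.53, 266.69 and 191.53 against 394.53, 623.6, 383.26 and 315.78. That at place 299 had 320.15, 504.08, 359.66 and 331.72 against 465.74, 776.43, 483.16 and 477.25. In both of these the groups overlapped while each TcMAC21 pup lay below the littermate of the same replicate number. Their log2 differences with the block were -0.70 (SE 0.0975, limma adjusted p = 0.0141) and -0.53 (SE 0.0853, limma adjusted p = 0.0312), and without it the adjusted p were 0.653 and 0.66. The blocked counts rested on single pairs. Without pair 1, 2, 3 or 4 in turn, 1, 0, 0 and 63 members were called, beside 0.0895%, 0.0149%, 0.0149% and 15.6% of all mouse genes. At an unadjusted p under 0.05 the fit without pair 2 held 56 members (16%, and 14.7% of all mouse genes) and that without pair 3 held 44 (12.6%, and 14.1%).

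**Figure D1:**
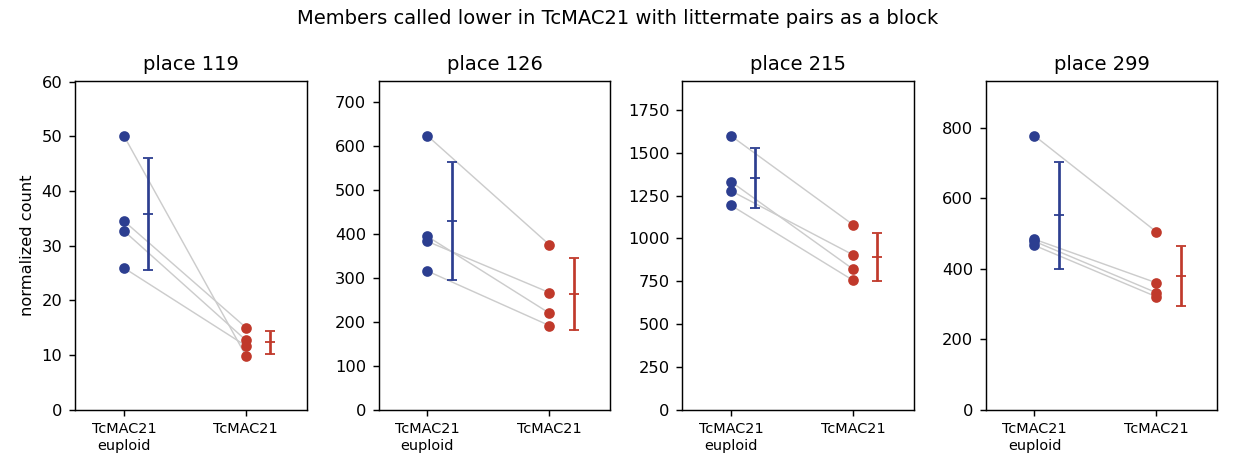
Normalized counts of the members at places 119, 126, 215 and 299 in the 4 TcMAC21 pups and their 4 euploid littermates, with grey lines joining animals of the same replicate number and bars giving the mean ± SD (n = 4). The y axes start at 0. The groups do not overlap at places 119 and 215, and in all 4 panels each pup lies below the littermate of the same replicate number.

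Along the order of identifiers the members were not uniform. In the TcMAC21 cross the median log2 differences of blocks 1 to 6 were 0.011, 0.017, 0.051, -0.038, -0.097 and -0.17. In the first 3 blocks 80 of 176 members (45.5%) lay below 0, and in the last 3 blocks 115 of 174 (66.1%). Block 6, next to the end of the stretch, had 47 of 59 members below 0 and a median ratio of 0.892. The 72 genes after the stretch, which are also disomic in TcMAC21 mice, had a median of -0.008. The nearest of them, in order, had ratios of TcMAC21 to euploid means of 0.898, 0.797, 0.781, 0.781 and 1.05. A median over all 72 cannot show where the gradient ended, and this was not tested.

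**Figure D2:**
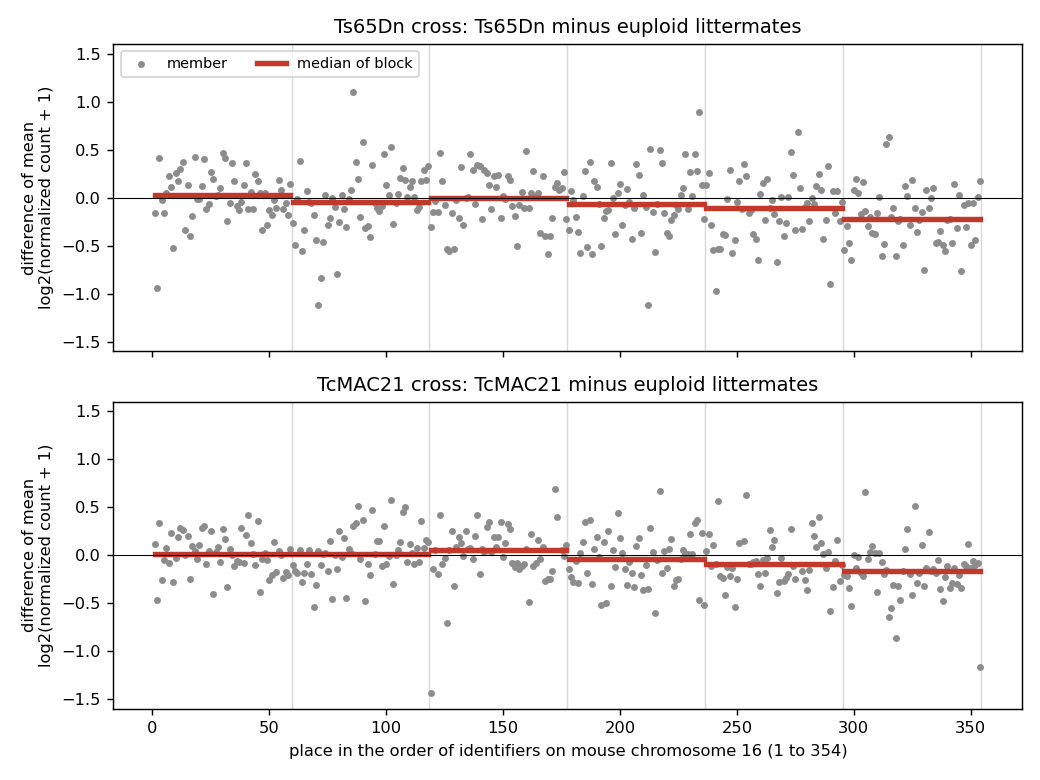
Difference between trisomic and euploid means of log2(normalized count + 1) for each member by its place in the order of identifiers, in the Ts65Dn cross (all members) and the TcMAC21 cross (the 350 with a mean of at least 10). Each red line is the median of a block of 59 members; the lines step down over blocks 4 to 6 in both crosses, to -0.22 and -0.17.

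Block 6 differed from animal to animal by as much as it differed between genotypes. Its median against the euploid mean was -0.14, -0.044, -0.21 and -0.34 in TcMAC21 replicates 1 to 4, and 0.025, 0.23, -0.031 and -0.18 in euploid replicates 1 to 4. The groups overlapped, although within each of the 4 littermate pairs the TcMAC21 pup was lower, by medians of -0.19, -0.28, -0.18 and -0.048. In block 1, by contrast, the medians of all 8 animals lay between -0.043 and 0.061. Over the 8 animals left out in turn the median of block 6 ranged from -0.27 to -0.073, and it stayed below 0 in each case. Of the 6 blocks, block 6 thus had both the largest genotype difference and the widest range over animals.

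The values of the Ts65Dn cross, which placed the end of the stretch, are given as a description. The ratio of Ts65Dn to euploid means averaged 0.965 ± 0.209 (SD over all members), with a median of 0.95, and the median log2 difference was -0.059, against 0.012 for 13426 mouse genes. Without euploid replicate 1 the ratios averaged 0.973 ± 0.275, with a median of 0.946. The median log2 difference was then -0.085 for the members and 0.004 for all mouse genes. The block medians were 0.027, -0.044, 0.00, -0.065, -0.11 and -0.22, and 0.011, -0.073, -0.027, -0.085, -0.20 and -0.35 without that animal. For block 6, Ts65Dn pups had -0.034, -0.19, -0.30 and -0.42 and euploid littermates -0.30, 0.018, 0.14 and 0.097. The low euploid animal was replicate 1. The groups did not overlap for 35 members (9.89%), 10 higher and 25 lower, beside 8.75% of all mouse genes (4.52% higher and 4.23% lower). Without euploid replicate 1 they did not overlap for 133 members, 45 higher and 88 lower, and without Ts65Dn replicate 1 for 76, beside 38.9% and 18.8% of all mouse genes.

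**Figure D3:**
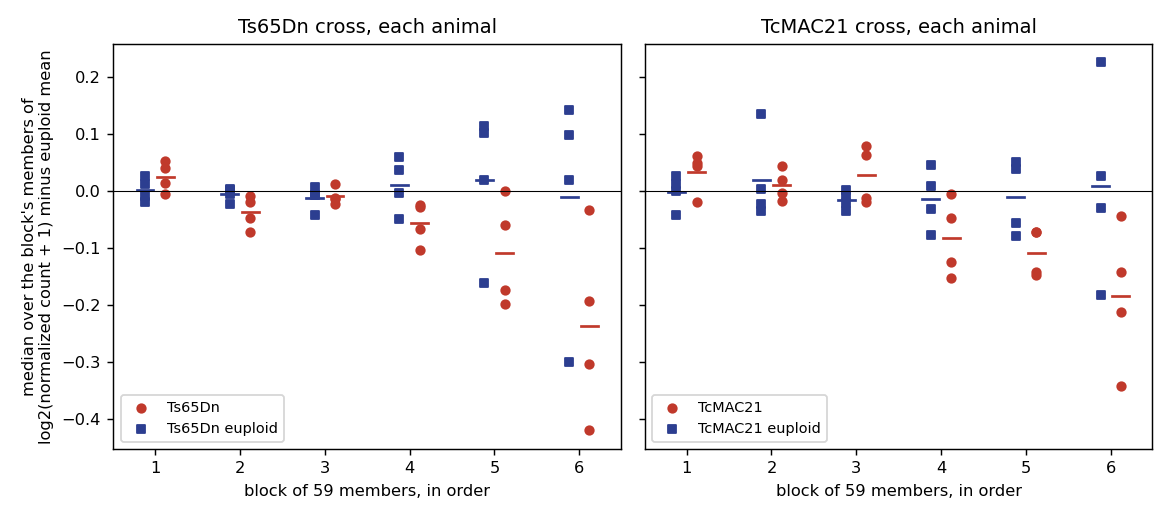
Median over the members of each block of log2(normalized count + 1) minus the mean of the 4 euploid animals of the cross, for each animal, with short lines at the group means. The points of both crosses lie close together in block 1 and spread out toward block 6, where they run from -0.42 to 0.14 in the Ts65Dn cross and from -0.34 to 0.23 in the TcMAC21 cross.

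The genes on both sides of the end of the stretch were described from the Ts65Dn values that placed it. The last 5 members had Ts65Dn to euploid ratios of 0.716, 0.938, 0.725, 1.01 and 1.04. The first 5 genes after them had ratios of 1.33, 1.15, 1.59, 1.06 and 1.71. Without Ts65Dn euploid replicate 1 the last 5 members had 0.72, 1.1, 0.673, 1.03 and 0.868, and the 5 genes after them 1.28, 1.03, 1.37, 0.993 and 1.92. The last member was weakly expressed, with 16.96, 14.02, 19.72 and 0 normalized counts in TcMAC21 pups, where a count of 0 reads in the shallowest TcMAC21 library allows up to 5.92. Its littermates had 22.52, 21.83, 12.71 and 18.4. The 3 members with the lowest Ts65Dn ratios, at places 212, 241 and 290, had 0.436, 0.502 and 0.511, and their ratios in TcMAC21 pups were 0.766, 0.936 and 0.697. The 3 with the highest, at places 86, 276 and 315, had 2.16, 1.75 and 1.5, and 1.23, 1.08 and 0.771 in TcMAC21 pups. Without Ts65Dn euploid replicate 1 the 3 low Ts65Dn ratios were 0.371, 0.45 and 0.432 and the 3 high ones 2.15, 2.15 and 1.28. At place 86 every Ts65Dn pup (65.07, 67.28, 72.82 and 86.64) lay above every littermate (33.21, 38.38, 24.31 and 38.96). In TcMAC21 pups (36.04, 31.16, 30.99 and 23.69) and their littermates (19.62, 31.38, 29.06 and 19.42) the groups overlapped.

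No member separated the trisomic from the euploid animals in both crosses. Within single crosses 9.89% (Ts65Dn) and 5.14% (TcMAC21) of the members did so, beside 8.75% and 4.27% of all mouse genes. The share of all mouse genes separating in both crosses was not worked out, so nothing is read from this absence. Of the 350 members tested in both, 144 were lower in both trisomic groups, 95 higher in both and 111 opposite, so 68.3% had the same sign. Over all mouse genes tested in both crosses the share was 71.8%. Without Ts65Dn euploid replicate 1, 161 members were lower in both and 103 higher in both, and the shares were 75.4% and 76.7%. The log2 differences of the 2 crosses, which share no animal but were normalized in 1 table, correlated across the members with r = 0.446 and rho = 0.512, and across 13336 mouse genes with r = 0.541 and rho = 0.57. Without that animal r was 0.629 and rho 0.688 across the members, and 0.675 and 0.70 across all mouse genes. Genes are not independent replicates, and these correlations are given as a description. In block 6, 35 members were lower in both crosses and 4 higher in both (37 and 4 without that animal). Over its 59 members r was 0.0877 and rho 0.245, and 0.40 and 0.49 without that animal. With all animals r was 0.436 to 0.574 and rho 0.456 to 0.664 in the other 5 blocks. These were not worked out without that animal.

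Other chromosomes showed shifts of the same size. Of the 18 other autosomes, 4 had a lower median than the members in each cross, and the medians ran from -0.091 to 0.14 in the Ts65Dn cross and from -0.063 to 0.075 in the TcMAC21 cross. Without Ts65Dn euploid replicate 1 the Ts65Dn medians ran from -0.15 to 0.18, and 5 were lower than that of the members. Their order was much alike in both crosses, with chromosomes 3, 13, 1 and 18 low and 7, 17 and 11 high. The sequence before Mrpl39 has a GC content of 40.51% and 6.25 protein-coding genes per Mb, and only chromosome 3, at 40.45%, has less GC among the other autosomes. Across these 18 autosomes the median log2 difference went with GC content (r = 0.853 and rho = 0.849 in the TcMAC21 cross, r = 0.811 and rho = 0.809 in the Ts65Dn cross) and with gene density (r = 0.831 and 0.836). Without Ts65Dn euploid replicate 1 the values of the Ts65Dn cross were r = 0.793 and rho = 0.779 for GC content and r = 0.807 for gene density. Along proximal MMU16, the 6 runs of 88 annotated genes had GC contents of 44.17, 43.21, 42.15, 44.18, 39.44 and 37.77%, and the last held 3.07 genes per Mb against 16 in the second. These runs are not matched to the blocks of members gene by gene. The part of base composition and gene density in the block medians was not tested, since it needs the sequence of each member.

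**Figure D4:**
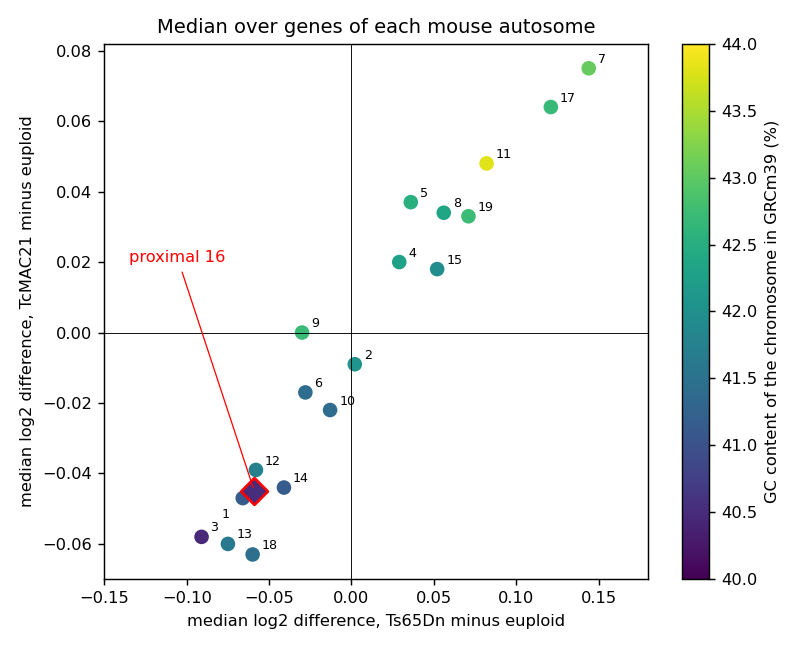
Median log2 difference over the genes of each mouse autosome in the Ts65Dn cross (x axis) and the TcMAC21 cross (y axis), with the colour giving the GC content of the chromosome in GRCm39. Proximal MMU16 (diamond, -0.059 and -0.045) lies among the other GC-poor chromosomes; the 72 genes of MMU16 after the stretch are not drawn.

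More members were called between the crosses than between genotypes, with 16 animals in the fit against 8. This comparison set the 8 animals of the Ts65Dn cross against the 8 of the TcMAC21 cross, each genotype weighted equally, and it does not use the contrast that placed the end of the stretch. Strain background, litter and cross cannot be told apart in it. The fit treats the 16 animals as independent, although littermates are not and the deviations of same-numbered TcMAC21 littermates went together. Its standard errors and p-values thus leave shared litters out. Of 350 members 38 passed an adjusted p of 0.05 (limma with Benjamini-Hochberg adjustment), beside 12.4% of all mouse genes (5.87% higher and 6.5% lower). DESeq2 on the recovered reads called 55, beside 17.4%. Of the 38, 19 were higher in the Ts65Dn cross, with a median log2 difference of 0.42, and 19 lower, with a median of -0.44, and none reached 2-fold. The calls were spread over the blocks, with 7, 6, 3, 5, 10 and 7 in blocks 1 to 6, and in block 6 6 of the 7 were lower in the Ts65Dn cross. Over all 59 members of block 6 the median difference between the crosses was -0.15, with 45 below 0. The count of called members depended on single animals, and so did its split. Without Ts65Dn replicate 3 it was 21 (14 higher and 7 lower), without Ts65Dn replicate 4 19 (13 and 6), without Ts65Dn euploid replicate 2 24 (14 and 10), without TcMAC21 replicate 2 18 (12 and 6), without TcMAC21 euploid replicates 2 and 3 19 (14 and 5) and 21 (11 and 10), and without TcMAC21 euploid replicate 4 64 (27 and 37). The shares of all mouse genes moved with it, and were 8.15%, 6.76%, 8.23%, 7.77%, 7.71%, 8.21% and 16.6% in the same order. Without Ts65Dn euploid replicate 1 the count was 52, beside 14.6% of all mouse genes, and with quantile normalization 18 were higher and 12 lower.

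**Figure D5:**
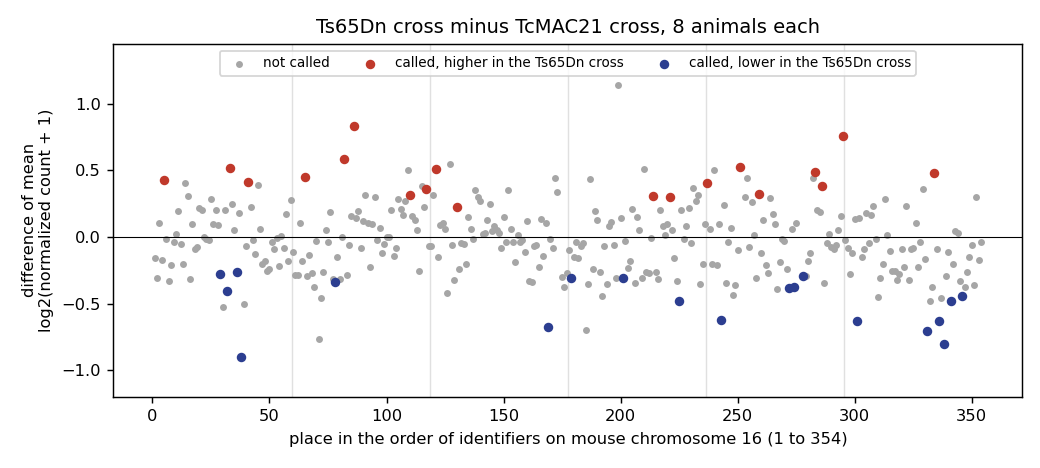
Difference between the mean log2(normalized count + 1) of the Ts65Dn cross and of the TcMAC21 cross (8 animals each) for the 350 members with a mean of at least 10, by place in the order of identifiers. Members called by limma are coloured, 19 higher (red) and 19 lower (blue) in the Ts65Dn cross.

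Among the members with the largest called differences, those at places 295 and 82 were higher in every animal of the Ts65Dn cross than in any of the other. The member at place 295 had 313.96 to 391.18 normalized counts in the Ts65Dn cross and 163.51 to 257.9 in the TcMAC21 cross, a log2 difference of 0.76 (SE 0.106, limma adjusted p = 0.000138). The crosses did not overlap. At place 82 the ranges were 409.89 to 605.64 and 259.74 to 407.78, again with no overlap, and the difference was 0.58 (SE 0.107, limma adjusted p = 0.00202). The members at places 86, 251 and 33 were higher in the Ts65Dn cross by 0.84, 0.52 and 0.52, with limma adjusted p of 0.0025, 0.0163 and 0.0122, and their ranges overlapped. At place 86 the 4 Ts65Dn pups lay far above their littermates, whose values (24.31 to 38.96) overlapped those of the TcMAC21 cross (19.42 to 36.04).

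In the other direction, the member at place 301 had 1807.42 to 3429.49 normalized counts in the Ts65Dn cross and 3354.75 to 4936.95 in the TcMAC21 cross. A single animal of each cross lay in the overlap, and the log2 difference was -0.63 (SE 0.112, limma adjusted p = 0.00152). At place 169 the ranges were 706.56 to 1525.34 and 1387.94 to 2362.04, and the difference was -0.67 (SE 0.133, limma adjusted p = 0.00372). The members at places 38, 338 and 331 were lower by 0.90, 0.80 and 0.71 on the log2 scale, with limma adjusted p of 0.0267, 0.018 and 0.0428. The calls at places 38 and 331 were less stable, lost in 4 and 12 alternative runs and kept in 18 and 9. With 1 animal left out the limma adjusted p rose to 0.0676 at most at place 38. At place 331, a gene with a mean of 15.5 normalized counts, it rose to 0.0984. At place 38 the animals of the TcMAC21 cross lay between 105.18 and 136.6 except TcMAC21 replicate 4, at 337.65, and those of the Ts65Dn cross between 51.48 and 98.28 except euploid replicate 1, at 156.55.

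The spread between animals of a group was close for members and for all mouse genes. The median SD of log2(normalized count + 1) was 0.215 for members and 0.214 for all mouse genes in Ts65Dn pups, 0.237 and 0.255 in their littermates, 0.25 and 0.256 in TcMAC21 pups, and 0.246 and 0.238 in theirs. In the Ts65Dn littermates it was 0.116 and 0.119 without euploid replicate 1. By level of expression in the TcMAC21 cross, the median log2 difference was 0.026 for members under 100 normalized counts, -0.035 from 100 to 1000, and -0.096 at 1000 and above. The Ts65Dn cross did not show this order, with -0.062, -0.066 and -0.025, and -0.087, -0.10 and -0.033 without euploid replicate 1.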

How the data were processed

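Poly(A) RNA of 16 whole P6 cerebella (4 groups of 4 animals) was sequenced. The authors used STAR 2.4.2a to map reads to mm39 plus human chromosome 21, built 1 set of gene models from all samples with PsiCLASS, and normalized with DESeq2. The deposited signal holds these DESeq2-normalized counts, with 2 decimals. Dividing by the value of 1 read gave whole numbers for 100% of values (tolerance 0.005), so reads were recovered. In the shallowest library 3 reads equal 6.63 normalized counts. This limit covers counting error alone. No libraries were identical.

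The 354 members, the blocks and the lists were chosen with earlier results of these data known. Members were named by rule: at most 2 identifiers in each direction among those called in the TcMAC21 cross, otherwise by place the 5 of smallest p in each direction called there with the block, the 5 largest called differences in each direction between crosses, the 3 highest and 3 lowest Ts65Dn ratios, the 3 most abundant, and 5 genes on either side of the end. Tests were limma 3.58.1 (eBayes with trend) on log2(normalized count + 1) over all genes with a mean of at least 10, Benjamini-Hochberg adjusted over all of them. edgeR 4.0.16 and DESeq2 1.42.0 were run on recovered reads in R 4.3.3, with the other alternatives given below. The limma, edgeR and DESeq2 fits without the block were run on simulated data with independent animals. The fits with the block were not. An adjusted p that DESeq2 left empty stayed empty. P-values of the fits without the block measure the spread between these animals, taken as independent although some share a litter. With the block they measure the spread of the differences within pairs.

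Replicate numbers were checked as pairs. The paper took trisomic and euploid littermates in pairs, but the labels name no pairs. Deviations of same-numbered TcMAC21 animals from their group means correlated by 0.491, 0.502, 0.197 and 0.5 over mouse genes, so these numbers were taken as pairs. Other matchings were not compared, and whether a shared processing step gave these correlations was not tested. In Ts65Dn and littermates the correlations were -0.451, -0.135, -0.354 and -0.224, and the numbers were not taken as pairs. GC content and gene positions are from GRCm39 and GENCODE M39. Python 3.11.15, NumPy 2.4.6, pandas 2.3.3 and matplotlib 3.10.9 were used for descriptions and plots.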

Additional observations from a re-analysis of the deposited data

Results flagged for a closer look

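In groups of 4 animals, a value was looked at again when its gap to the nearest other animal took more of the group's range than Dixon's 95% critical value allows. This held for 8 of 164 groups of values tested, and chance gives about 1 in 20. Ts65Dn euploid replicate 1 was the far animal in 3 of them. It was high at place 82 (605.64 normalized counts, the others 491.38 to 503.89), high at place 38 (156.55, the others 52.51 to 63.79) and low at place 301 (1807.42, the others 2705.1 to 2726.3). Ts65Dn replicate 1 was high at place 338 (308.59, the others 146.92 to 173.12) and at place 315 (40.92, the others 18.14 to 20.67). TcMAC21 replicate 4, the shallowest TcMAC21 library, was high at place 38 (337.65, the others 105.18 to 127.92). TcMAC21 euploid replicate 2 was high at place 299 (776.43, the others 465.74 to 483.16). Over the 72 genes after the stretch, TcMAC21 euploid replicate 3 had a low median against the euploid mean (-0.039, the others 0.016 to 0.02).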

How the results depend on the processing

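The medians of the members and of block 6 moved by less than the SD between animals under each alternative run. The runs were pseudocount 0.1, minimum mean of 50, quantile normalization and ratio of means for the members, and each animal left out for both. Leaving out 1 of 4 animals can hardly move a median by that SD, so for these runs nothing is read from it. With 1 animal left out the medians ranged from -0.071 to -0.014 (members) and -0.27 to -0.073 (block 6) in the TcMAC21 cross. In the Ts65Dn cross they ranged from -0.085 to -0.039 and from -0.35 to -0.17. The count of 1 member called in the TcMAC21 cross became 0 at a minimum mean of 50, which removes that gene, 2 with DESeq2, 4 with the replicate block, 15 with DESeq2 and the block, 4 with edgeR and the block (1.05% of all mouse genes), and 0 to 1 with 1 animal left out. The blocked count without pair 2, 3 or 4 was 0, 0 and 63. The fits of DESeq2 and edgeR with the block, the pairs left out, the animals left out for block 6, and the Ts65Dn descriptions without euploid replicate 1 were chosen after seeing the data. The Ts65Dn count of 0 (limma, 60 at an unadjusted p under 0.05, which is 16.9% beside 17% of all mouse genes) is a description from which nothing is read, since the contrast placed the end of the stretch. It became 13 with DESeq2 (2.36% of all mouse genes), 1 with all 16 animals in one fit (0.0968%), and 0 to 91 with 1 animal left out (91 without euploid replicate 1, 27.8% of all mouse genes), and stayed 0 with the replicate block and with edgeR. The 38 members called between the crosses became 18 to 64 with 1 animal left out. Members whose groups do not overlap numbered 18 to 47 in the TcMAC21 cross and 38 to 133 in the Ts65Dn cross with 1 animal left out. Fewer animals separate more easily, but the 133 came only without Ts65Dn euploid replicate 1. Without Ts65Dn replicate 1 the count was 76, and each other animal of that cross left out gave 38 to 42. Apart from the gene removed at a minimum mean of 50, the causes of these moves were not tested. The abundant members at places 137 and 263, not called, changed sign with 1 animal left out (log2 -0.11 to 0.056 and -0.16 to 0.073) and with the block without pair 4 (0.14 at place 137) or pair 1 or 2 (0.019 and 0.016 at place 263). No member named as called changed sign, and of the 10 named between the crosses 8 kept their call under each alternative run. A mean near 10 rests on few reads, so changes of members under 100 normalized counts were least resolved.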
